A study of Rattus norvegicus with 4 samples.

Results

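Of the 38948 probes measured in PCCl3 rat thyroid cells, 272 changed in the same direction on all 4 arrays of the study, whichever of 2 inducible proteins the cells carried. These shared changes, candidate responses only, comprised 105 rises and 167 falls, together 0.698% of all probes. They were chosen by the values described here: after each array was centred on its median, all 4 values had to have the same sign and a size of at least 0.25, and the mean of each construct had to stay under 1.2 in size. The sizes and directions below therefore describe the selection and carry no test of their own. With Engr-HDm, 0 of the 38948 probes passed the main test given below (limma, adjusted p below 0.05). The 105 rises had a median change of 1.47-fold with Engr-HD and 1.27-fold with Engr-HDm. The 167 falls had a median change of 1.54-fold with Engr-HD and 1.30-fold with Engr-HDm. Which construct gave the larger change depends on how the arrays are scaled, as given below.

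PCCl3 is an established rat thyroid follicular line, here made into stably transformed clones with a transactivator (tTA) and a construct under its control. The first group of 2 arrays compared cells without doxycycline, which expressed Engr-HD, named by the submitters as an antagonist of TTF1, with cells of the same construct kept in doxycycline, which did not. The second group of 2 arrays made the same comparison for Engr-HDm, the control protein. Cells of both constructs had been selected in doxycycline at 2 µg/mL together with Geneticin and hygromycin, and were then split and cultured for 10 days with or without the drug, although the extraction label gives a week without it. RNA was taken at 50% confluency, and array 1 of each construct carried the expressing cells in Cy5 and array 2 in Cy3. Neither separate cultures for the 2 arrays nor the number of clones are given in the labels, so the spread between arrays may be technical only.

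TTF1, also known as Nkx2-1, is a homeodomain transcription factor of the thyroid, lung and forebrain. In follicular cells it acts with other factors on the genes of hormone synthesis, such as those for thyroglobulin and thyroperoxidase. In a system with the tTA transactivator, doxycycline binds tTA and keeps it off its promoter, so that removing the drug switches the construct on. Doxycycline is also an antibiotic of the tetracycline class, a class known to slow protein synthesis in mitochondria. Removal of the drug and expression of a protein coincide in every expressing cell of this study. For the 272 probes, an effect of drug removal and an effect common to both proteins cannot be told apart.

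Each value is a log ratio, read here as log2, and likely runs as expressing (-Dox) over non-expressing (+Dox) cells, the order in which the titles name the pair. If it ran the other way, the rises and falls would change places. Having 2 arrays per construct limits the precision, and brightness values were not used here, so a dim probe cannot be told from a bright one. The IDs matched no entry of the reference table (0 matches), so no gene, sequence or pathway is attached to a probe and the thyroid identity of the cells could not be checked on its markers.

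Among the rises, the values on Engr-HD array 1 ran from 0.253 to 1.187 with a median of 0.508, and on Engr-HD array 2 from 0.25 to 1.093 with a median of 0.610. On Engr-HDm array 1 they ran from 0.25 to 0.611 with a median of 0.304, and on Engr-HDm array 2 from 0.253 to 0.733 with a median of 0.364. On the deposited scale the rises were thus spread widely with Engr-HD and crowded near the lower bound with Engr-HDm. With Engr-HD, 49 of the 105 rises reached 1.5-fold and 5 reached 2-fold. With Engr-HDm, 1 reached 1.5-fold and 0 reached 2-fold. That 1 probe was also the only rise past 1.5-fold with both constructs.

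**Figure D1:**
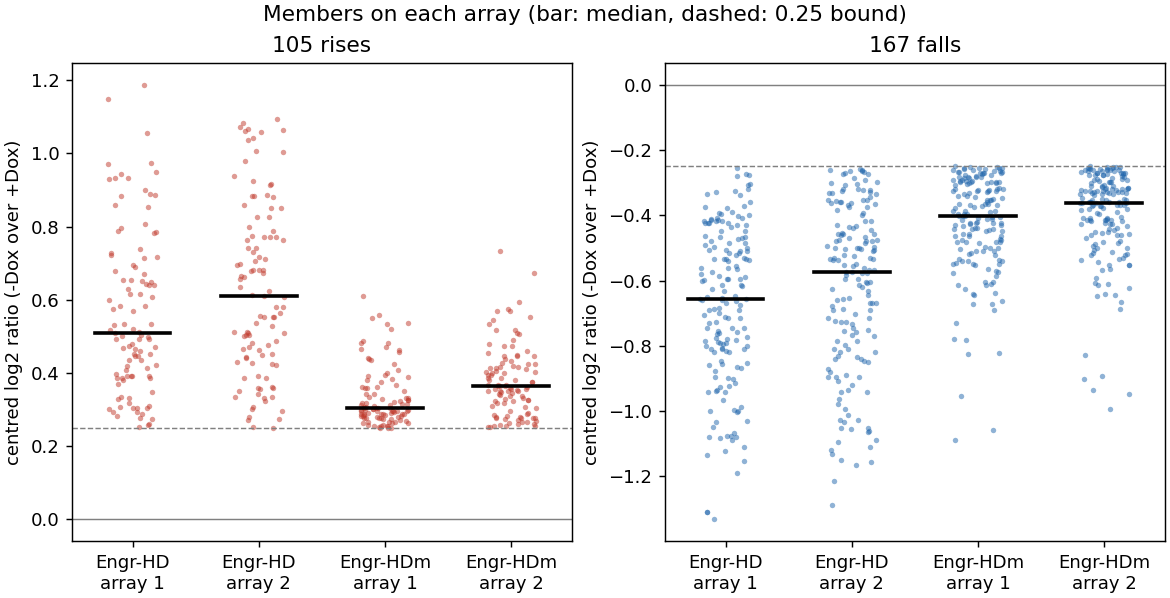
Centred log2 ratio (likely -Dox over +Dox) of the 105 rises (left) and 167 falls (right) on each array. Each point is a probe, black bars are medians over probes and dashed lines mark the bound of 0.25; on the deposited scale, points lie further from the bound on the Engr-HD arrays than on the Engr-HDm arrays, an order that turned under quantile normalization.

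The rise that stood farthest from the bound on its weakest array was Operon probe Rn30005367. Its log2 ratios were 0.569 and 0.678 on the Engr-HD arrays, against 0.611 and 0.672 on the Engr-HDm arrays. The constructs overlapped at this probe, and array 2 was the higher one in both. Its mean was 0.62 ± 0.08 with Engr-HD, or 1.54-fold, and 0.64 ± 0.04 with Engr-HDm, or 1.56-fold (SD, n = 2 arrays each). Under quantile normalization, which gives all arrays 1 distribution, the means were 0.42 and 1.60. It was the rise that passed 1.5-fold with both constructs.

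The next was Operon probe Rn30000687. It read 0.885 and 1.057 on the Engr-HD arrays, against 0.536 and 0.593 on the Engr-HDm arrays. Here the constructs did not overlap and both Engr-HD arrays were the higher, an order that turned under quantile normalization, with means of 0.65 with Engr-HD and 1.33 with Engr-HDm. The mean was 0.97 ± 0.12 with Engr-HD, or 1.96-fold, and 0.56 ± 0.04 with Engr-HDm, or 1.48-fold (SD, n = 2 arrays each).

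Among the falls, the values on Engr-HD array 1 ran from -1.332 to -0.254 with a median of -0.656. On Engr-HD array 2 they ran from -1.289 to -0.259 with a median of -0.573. On Engr-HDm array 1 they ran from -1.089 to -0.25 with a median of -0.402, and on Engr-HDm array 2 from -0.993 to -0.25 with a median of -0.362. With Engr-HD, 88 of the 167 falls reached 1.5-fold and 20 reached 2-fold. With Engr-HDm, 17 reached 1.5-fold and 1 reached 2-fold. A total of 11 falls reached 1.5-fold with both constructs, or 6.6% of the falls, against 1 or 1.0% of the rises.

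The fall farthest from the bound on its weakest array was Operon probe Rn30002821. Its log2 ratios were -0.915 and -0.849 on the Engr-HD arrays, against -0.821 and -0.687 on the Engr-HDm arrays. The Engr-HD arrays were the lower ones, an order that turned with an equal median absolute deviation (means of -0.72 with Engr-HD and -0.94 with Engr-HDm) and under quantile normalization (-0.63 and -1.27). The mean was -0.88 ± 0.05 with Engr-HD, a 1.84-fold fall, and -0.75 ± 0.09 with Engr-HDm, a 1.69-fold fall (SD, n = 2 arrays each).

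The second fall in this order was probe ENSRNOG00000007319, an Ensembl rat gene ID. It read -0.794 and -0.669 on the Engr-HD arrays, against -1.089 and -0.993 on the Engr-HDm arrays. This fall was larger with the control protein, and the constructs did not overlap. Under quantile normalization the means were -0.52 with Engr-HD and -1.62 with Engr-HDm. The mean was -0.73 ± 0.09 with Engr-HD, a 1.66-fold fall, and -1.04 ± 0.07 with Engr-HDm, a 2.06-fold fall (SD, n = 2 arrays each). It was the 1 member to reach 2-fold with Engr-HDm.

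On the deposited scale most members changed more with Engr-HD than with Engr-HDm, but this order did not hold under other scalings. As deposited, the Engr-HD mean was the larger in size at 90 of the 105 rises and 141 of the 167 falls. With an equal median absolute deviation it was the larger at 57 of these rises and 83 of these falls, and under quantile normalization at 6 and 23. As deposited, the Engr-HDm mean was the larger at 14 rises and 26 falls, and at 1 rise the means were equal. In size, as deposited, both Engr-HD arrays exceeded both Engr-HDm arrays at 70 rises and 113 falls. The reverse held at 6 rises and 13 falls, and the arrays of the constructs overlapped at 29 rises and 41 falls. Over all probes the values with Engr-HD are the more widely spread, with SDs of 0.393 and 0.402 on its arrays against 0.146 and 0.178 on the Engr-HDm arrays, so larger values with Engr-HD are not particular to the members.

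The ratio of the Engr-HDm change to the Engr-HD change had a median of 0.619 among the rises, with quartiles of 0.471 and 0.820 and extremes of 0.243 and 1.496. Among the falls the median was 0.656, with quartiles of 0.469 and 0.893 and extremes of 0.263 and 1.776. The lower extremes of these ratios are limited by the 2 bounds of the rule. Within the ranges the rule left, the sizes of the changes with the constructs correlated weakly, and ranges cut short favour a low correlation. Across probes the Engr-HD and Engr-HDm means correlated at r = 0.051 over the 105 rises and at r = 0.090 over the 167 falls. The 2 arrays of Engr-HD correlated at r = 0.866 over the rises and 0.886 over the falls, and the 2 arrays of Engr-HDm at 0.288 and 0.621. These correlations are descriptions over probes that share arrays, in ranges the rule cut short, and probes are not independent replicates. The rule required the same sign on both arrays, so correlations within the members do not stand for all probes. Over all probes the Engr-HD mean had an SD of 0.386, near the 0.393 and 0.402 of its arrays. The Engr-HDm mean had an SD of 0.109, below the 0.146 and 0.178 of its arrays, so these arrays agreed poorly over all probes.

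**Figure D2:**
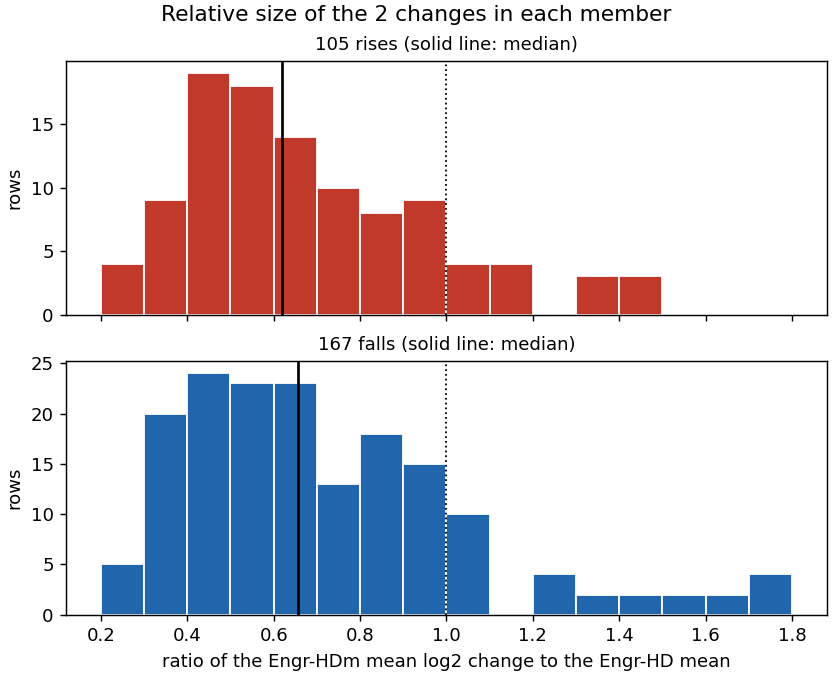
Number of rises (top) and falls (bottom) by the ratio of the Engr-HDm mean log2 change to the Engr-HD mean log2 change, in bins of equal width. The dotted line marks equal changes and the solid lines the medians of 0.619 and 0.656; most members lie below 1 on the deposited scale, but not under quantile normalization.

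**Figure D3:**
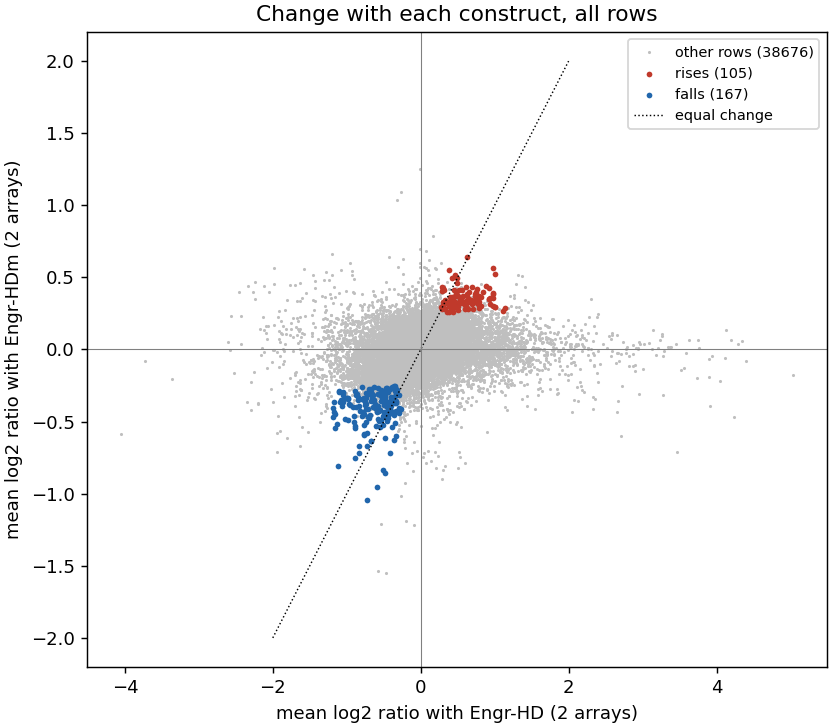
Mean log2 ratio with Engr-HD (horizontal) against that with Engr-HDm (vertical), each over 2 arrays, for the 105 rises, the 167 falls and all other probes (grey). The members lie in the corners where both changes share a sign, mostly on the Engr-HD side of the dotted line of equal change on the deposited scale, but not under quantile normalization.

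The 272 members were set beside the other sign patterns at the same bounds. A size of at least 0.25 on all 4 arrays with both means under 1.2 was met by 605 probes. Of these, the 105 rises were 17.4% and the 167 falls 27.6%. Opposite changes were fewer: 35 probes, or 5.8%, rose with Engr-HD but fell with Engr-HDm, and 45, or 7.4%, did the reverse. A further 155 probes, or 25.6%, were above 0 on both number 1 arrays and below 0 on both number 2 arrays, the pattern in which the sign follows the dye and not the cells. Its mirror image held at 39 probes, or 6.4%, and 59 had other patterns.

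The mix of patterns shifted with the size required. At a lower bound of 0.1, shared rises numbered 1012 and shared falls 1276, against 356 and 402 probes with opposite changes. At 0.4, 9 rose and 39 fell with both, against 5 and 8 with opposite changes. At 0.5, 3 rose and 15 fell with both, while 58 were above 0 on the number 1 arrays and below 0 on the number 2 arrays. Falls outnumbered rises among the shared changes at each of the bounds from 0.1 to 0.5, and the pattern that follows the dye was the largest of the 6 named patterns from 0.3 upwards.

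**Figure D4:**
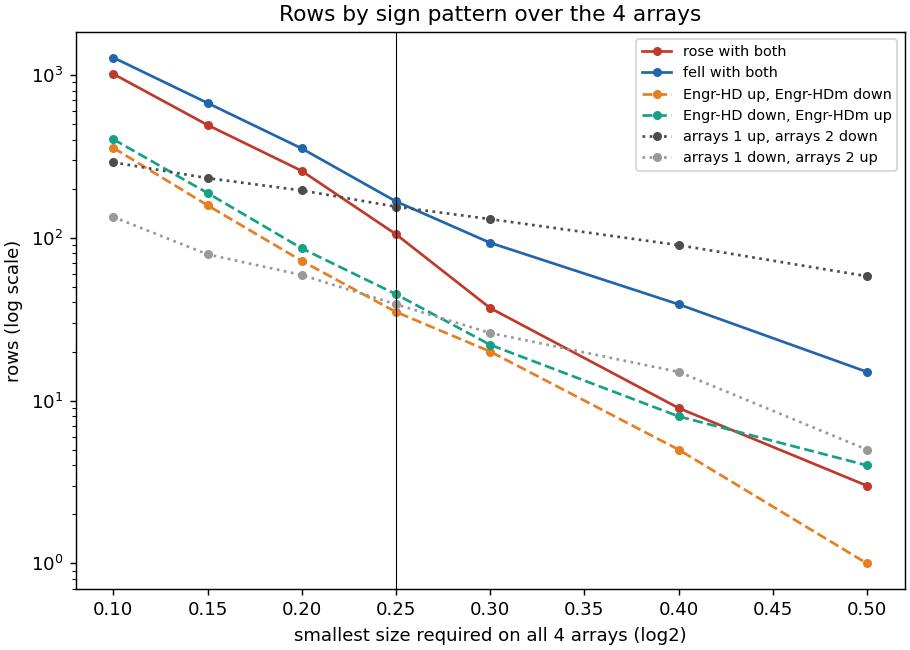
Number of probes (log scale) with each sign pattern over the 4 arrays, by the smallest size required on every array, from 0.1 to 0.5, with both construct means under 1.2. The vertical line marks the bound of 0.25, where 105 probes rose and 167 fell with both constructs.

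On the deposited scale the members were a small part of the probes past 0.25 with Engr-HD and a larger part of those with Engr-HDm. Both Engr-HD arrays lay at 0.25 or above at 4194 probes, or 10.77% of all, and at -0.25 or below at 4080, or 10.48%. The 105 rises were 2.50% of the first of these lists and the 167 falls 4.09% of the second. Both Engr-HDm arrays lay at 0.25 or above at 297 probes, or 0.76% of all, and at -0.25 or below at 379, or 0.97%. Of these, the rises were 35.35% and the falls 44.06%. With no upper bound, 114 or 38.38% of the 297 rose with Engr-HD too and 78 or 26.26% fell with it. Of the 379 that fell with Engr-HDm, 198 or 52.24% fell with Engr-HD too and 50 or 13.19% rose with it. The overlap in the shared direction was thus larger than that in the opposite direction in both cases. All 4 shares, the opposite ones included, lay above the 10.77% and 10.48% of all probes that were as high or as low with Engr-HD. The difference between these shares was not tested.

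Fewer arrays are easier to pass, so leaving 1 out favours a larger number of members by construction. That number grew most without an Engr-HDm array, the arrays whose values are the less widely spread over all probes. With Engr-HDm array 1 left out, the rule on the other 3 arrays took 505 rises and 528 falls, and with Engr-HDm array 2 left out 222 rises and 475 falls. Without Engr-HD array 1 it took 124 and 177, and without Engr-HD array 2 it took 113 and 194. With the replicate block, which takes off each probe's mean deviation between dye orientations, there were 205 rises and 274 falls, among them 100 of the 105 and 157 of the 167. With all arrays scaled to equal median absolute deviation there were 194 rises and 276 falls, and under quantile normalization 349 and 488, since both settings widen the Engr-HDm values relative to the Engr-HD ones.

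The dye orientation moved with the values of the members too. Array 1 read below array 2 in both constructs at 60 of the 105 rises (57.1%) and 82 of the 167 falls (49.1%), against 39.0% of all probes. It read above array 2 in both at 20 rises (19.0%) and 32 falls (19.2%), against 29.4% of all probes. The median of array 1 minus array 2 was -0.057 with Engr-HD and -0.051 with Engr-HDm among the rises, and -0.043 and -0.027 among the falls, against -0.015 and -0.007 over all probes. An array 1 below array 2 was thus the more frequent order among all probes too. All members keep their sign in both orientations by the rule. The SD between the 2 arrays had a median of 0.055 with Engr-HD and 0.046 with Engr-HDm among the rises, and 0.052 and 0.050 among the falls, against 0.043 and 0.047 over all probes. The part of the dye in the choice of members was not tested.

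The test across all probes used the same contrasts as the rule, so its calls are given only beside their background. With Engr-HD, 102 of the 105 rises passed as higher (limma, adjusted p below 0.05), where 14.2% of all probes did, and 164 of the 167 falls passed as lower, where 13.9% of all did. With Engr-HDm, 0 of the 105 rises and 0 of the 167 falls passed, where 0% of all probes passed in either direction. The smallest limma adjusted p with Engr-HDm was 0.0722, a value shared by several members, the named fall ENSRNOG00000007319 among them. Of the 38948 probes, 5440 had an unadjusted limma p below 0.05 with Engr-HDm, all 105 rises and 167 falls among them. The rule required a size of 0.25 on both Engr-HDm arrays, so the members were chosen in part for values that give a low p. In a fit with a replicate block for dye orientation, all 105 rises passed as higher and all 167 falls as lower with each construct. That fit left only 1 residual degree of freedom and took a probe's dye deviation as equal in both constructs. In that fit 20.9% of all probes passed as higher and 21% as lower with Engr-HD, and 6.72% as higher and 6.6% as lower with Engr-HDm.

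Probes on either side of the lower bound were alike. A total of 17 rises had a smallest value from 0.25 to 0.258, with a median mean of 0.44 with Engr-HD and 0.29 with Engr-HDm. Just outside stood 25 probes from 0.240 to 0.249, with medians of 0.455 and 0.288. Among the falls, 20 probes lay from 0.25 to 0.259 in size, with medians of -0.47 and -0.29, and 30 just outside lay from 0.240 to 0.249, with medians of -0.46 and -0.27.

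At the upper bound, 9 probes that rose on all 4 arrays were left out for an Engr-HD mean from 1.21 to 1.45. The highest Engr-HD mean among the rises was 1.14. Another 28 probes that fell on all 4 arrays were left out for an Engr-HD mean from 1.21 to 2.21 in size, and the largest inside was 1.18. A further 3 falls were left out because the Engr-HDm mean was too large. They stood at -0.47, -0.58 and -0.53 with Engr-HD, against -1.55, -1.54 and -1.21 with Engr-HDm. The first of these 3 is the lowest Engr-HDm mean of the whole table, so the deepest fall with the control protein was shared in direction with the antagonist.

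Members occurred under all 3 kinds of ID. Ensembl gene IDs held 38 rises and 62 falls, or 36.8% of the members, against 30.8% of all probes. Operon numbers beginning Rn3 held 61 rises and 91 falls, or 55.9% of the members, against 63.0% of all probes. Operon numbers beginning R0 held 6 rises and 14 falls, or 7.4% of the members, against 6.2% of all probes. Falls outnumbered rises under each kind. These count probes and not genes, since a gene may have more than 1 probe. None of the 272 shared all 4 of its values with another probe.

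Some members stood next to each other in the Operon numbering, a property the rule did not use. Of 22401 pairs of consecutive Rn3 numbers, 263 held at least 1 member and 8 held 2. In all 8 pairs both members changed in the same direction, 2 pairs rising and 6 falling. The means of the 2 probes of a pair differed by 0.015 to 0.201 with Engr-HD, with a median of 0.068, and by 0.003 to 0.153 with Engr-HDm, with a median of 0.019. Members of the same direction have means confined by the rule, so small differences are favoured. For scale, the SD over members was 0.221 (rises) and 0.243 (falls) with Engr-HD, and 0.071 and 0.135 with Engr-HDm. Whether neighbours were closer than other members was not tested. The rising pairs had means of 0.71 and 0.78, and of 0.44 and 0.56, with Engr-HD, against 0.34 and 0.35, and 0.26 and 0.41, with Engr-HDm. Of the 105 probes that stood next to a rise, 4 or 3.81% were rises, against 0.248% of all Rn3 probes. Of the 164 that stood next to a fall, 12 or 7.32% were falls, against 0.371%. The sources used here do not say whether consecutive numbers belong to 1 gene.

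Among the neighbours that were not members, the median change lay near 0 and signs were mixed. Of 101 such probes next to a rise, 20 or 19.8% had all 4 values above 0, against 12.2% of all Rn3 probes outside the members. Of 152 next to a fall, 30 or 19.7% had all 4 values below 0, against 12.6%. The Engr-HD mean was above 0 at 54.5% of those next to a rise and 46.7% of those next to a fall, against 48.8% of all Rn3 probes outside the members. The Engr-HDm mean was above 0 at 57.4% and 42.8%, against 49.3%. The medians were 0.008 with Engr-HD and 0.015 with Engr-HDm next to the rises, and -0.009 and -0.009 next to the falls. These shares are descriptions with no test.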

How the data were processed

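Per the labels, RNA of expressing and non-expressing cells was amplified, coupled to Cy5 or Cy3, and co-hybridized on a rat array carrying 70-base probes. The deposited table held 1 log ratio per probe and array, read here as log2. How background was corrected and values normalized, the log base and the direction are not given in the sources used here. All column medians lay within 0.003 of 0. Of 38960 rows, 12 control rows were left out, and each array was centred on its median. Each remaining row is counted here as a probe. The series' design text states 34717 probes, fewer than these rows, and this difference was not resolved.

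The members and the lists were chosen with earlier results of these data known. The gene lists and cell type markers needed gene names and were not applied. Named are the 2 rises and 2 falls with the largest smallest value over the 4 arrays. Background counts came from two-sided moderated tests in limma 3.58.1 (R 4.3.3; functions lmFit and eBayes), adjusted by Benjamini-Hochberg over 38948 probes at a threshold of 0.05. The 4 arrays entered 1 model with 1 term for each construct, leaving 2 residual degrees of freedom. The fit and the rule were run on simulated data with independent noise on each array and equal planted changes with both constructs. That simulation held no shared dye effect, so it checks the code and not the fit to these arrays. The array number pairs the samples, since it marks the dye orientation in the labels. The differences between arrays 1 and 2 had a correlation of r = 0.849 over probes between Engr-HD and Engr-HDm. A replicate block for this number was therefore fitted as well, leaving 1 residual degree of freedom. Alternatives covered centring, scaling, the bounds, repeated rows, robust empirical Bayes and each array left out.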

Additional observations from a re-analysis of the deposited data

Results flagged for a closer look

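At the bounds used for the members, 35 probes rose on both Engr-HD arrays and fell on both Engr-HDm arrays, and 45 fell on both Engr-HD arrays and rose on both Engr-HDm arrays. They stand out because every array of 1 construct moved one way and every array of the other moved the opposite way. The difference was not tested. The 35 had a median of 0.49 with Engr-HD and -0.39 with Engr-HDm, and the 45 a median of -0.64 with Engr-HD and 0.37 with Engr-HDm.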

How the results depend on the processing

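Without centring and with repeated rows counted once, the numbers of rises, falls and opposite changes stayed within 1.5 times 105, 167 and 80. With an equal median absolute deviation they were 194, 276 and 133, under quantile normalization 349, 488 and 263, and with the replicate block 205, 274 and 127. A lower bound of 0.20 gave 257, 353 and 158, and one of 0.30 gave 37, 93 and 42. With no upper bound, opposite changes numbered 128, and rises and falls stayed within 1.5 times. Leaving out 1 array gave 113 to 505 rises, 177 to 528 falls and 99 to 291 opposite changes, by construction more, since 3 arrays are easier to pass than 4. Past the limma test, 4453 probes were called with Engr-HD under quantile normalization and 5048 to 9777 with 1 array left out, against 10981. With Engr-HDm, 2 were called with an equal median absolute deviation, 5190 with the replicate block and 0 with 1 array left out. The means of the 4 named probes were recomputed 64 times, of which 48 moved by at most 1 SD between arrays, 16 by more and 0 changed sign. All 16 came from the 2 scalings, and each scaling moved every one of these means by more than 1 SD. The other 48 could hardly move, so they are no sign of stability. With 2 arrays, leaving 1 out cannot shift a mean by more than 1 SD. The block and the other construct's arrays leave the mean unchanged, and the column medians lay within 0.003 of 0. Under quantile normalization each Engr-HDm mean grew by over 1.5 times, so the printed folds hold on the deposited scale only. The alternatives for opposite changes, for the named probes and for which construct gave the larger change were chosen after seeing the data. Except where the construction is stated, the cause of these shifts was not tested. No brightness values were used here, so dim probes with unsure small ratios were not set apart.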
